A study of Saccharomyces cerevisiae with 4 samples.

Results

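The cell wall integrity pathway of budding yeast was described here through 10 of its genes: the surface sensor genes WSC1 and MID2, the exchange factor gene ROM2, the GTPase gene RHO1, the protein kinase C gene PKC1, the kinase genes BCK1, MKK1, MKK2 and SLT2, and the transcription factor gene RLM1. They were picked by name from the 5897 genes of the deposited expression table. All 10 were present, 9 under these names and WSC1 under its older symbol SLG1, which was matched through its gene identifier. The libraries came from the industrial Saccharomyces cerevisiae strain CY, grown with shaking for 10 h in YPD, a rich medium of yeast extract, peptone and glucose. There were 2 non-stress libraries (30 °C, 2% glucose) and 2 stress libraries (36 °C, 10% glucose), so temperature and glucose changed together and their effects cannot be told apart. The labels give no genotype or ploidy for CY, and strain, medium and time were the same in both groups.

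The pathway carries signals of wall damage and stretch from the cell surface to the nucleus, and in budding yeast it is known to respond to raised temperature. Sensors with long, glycosylated outer domains activate the GTPase Rho1 through its exchange factors. Rho1 then activates Pkc1, and Pkc1 activates a cascade of the kinase Bck1, the paired kinases Mkk1 and Mkk2, and the MAP kinase Slt2. Slt2 phosphorylates the factor Rlm1, which drives genes for wall proteins and enzymes. Much of this signalling runs through phosphorylation, which transcript levels do not measure.

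Levels were given by the authors as FPKM, a fragment count scaled to a length per gene and to library size. Of the listed lengths 98.8% are divisible by 3, as coding lengths without untranslated ends are. Levels of different genes are therefore set side by side only roughly. An FPKM is a share of a library: more cells with a transcript and more of it per cell cannot be told apart. The libraries held an estimated 18100000 to 18900000 fragments, and each of the 10 genes had an estimated 799 to 6796 fragments in each library. Groups were compared with limma on log2(FPKM + 1), which understates changes of low genes, and a gene passed at a Benjamini-Hochberg adjusted p under 0.05 over all 5784 genes tested. Nothing in the labels says that the 2 libraries of a group came from separate cultures, so p-values reflect the spread of these libraries alone, which may be technical.

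Of the 10 pathway genes 8 passed the test, 4 higher under stress (WSC1, MID2, PKC1 and MKK2) and 4 lower (MKK1, BCK1, SLT2 and RLM1), while RHO1 and ROM2 did not pass. Over all genes 87.7% passed, 39.8% higher and 47.9% lower (2300 and 2771 genes; 1606 and 3576 with equal FPKM sums that leave out ribosomal protein genes), so the number that passed was near the background. The libraries of the groups did not overlap for 9 of the 10 genes, all but RHO1, as for 93.8% of all genes. The changes ranged from -1.16 to 0.65 on the log2 scale with a median of -0.11, where the median of all genes was -0.14. An absolute log2 fold change of at least 1 was seen for 2 of the 10, SLT2 and BCK1, against 46% of all genes. This depended on the scaling: SLT2 had -0.98 and BCK1 -0.87 after median centring. Without a trend of fold change on coding length they had -0.94 and -0.66. The share of all genes with a larger absolute change ran from 40.4% (SLT2) to 94.8% (RHO1). The call or the direction of 3 of the 8 (MID2, MKK2 and RLM1) depended on how the libraries were scaled, as given with each gene. The calls and directions of RHO1 and ROM2 depended on it too. The balance of 4 higher and 4 lower became 2 higher and 7 lower when libraries were set to equal FPKM sums with ribosomal protein genes left out, and 5 higher and 3 lower when a trend of fold change on coding length was removed.

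**Figure D1:**
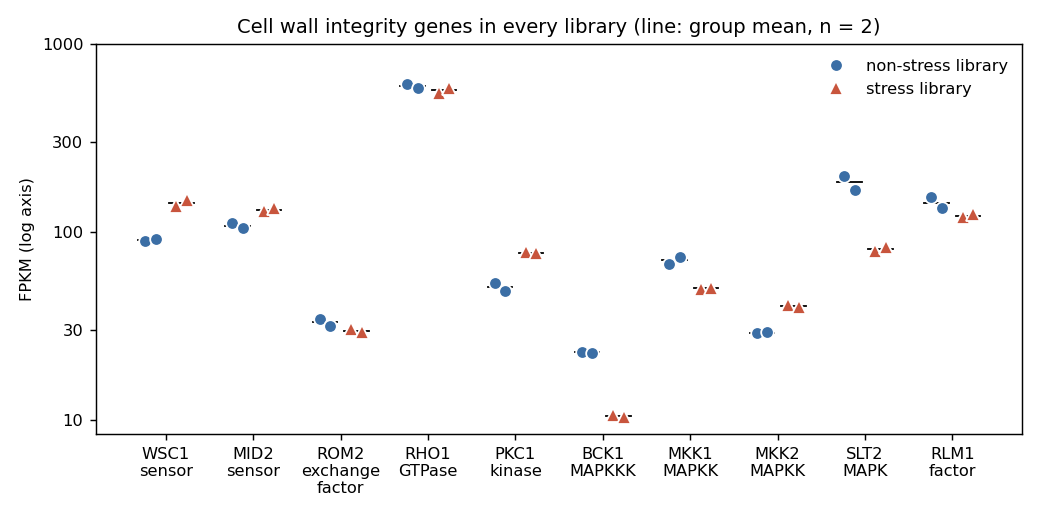
FPKM on a log axis of the 10 pathway genes, ordered from the surface to the nucleus, in the 2 non-stress libraries (circles) and the 2 stress libraries (triangles), with a line at each group mean. BCK1 and SLT2 lie clearly lower in stress libraries, WSC1 and PKC1 clearly higher, and the RHO1 libraries of the groups overlap.

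Both sensor genes were higher in the stress libraries. WSC1, which encodes the mechanosensor best known for responses to heat (build R64, as for all coordinates given, chromosome XV, 341278 to 342414, minus strand, 1 coding exon), was at 89.5 and 91.9 FPKM in non-stress and 138 and 148 FPKM in stress libraries. Every stress library was above every non-stress library, a 1.58-fold rise in mean FPKM. The log2 fold change was 0.65 ± 0.058 (SE; limma adjusted p = 4.14e-06), and its sign and call held under all 5 other scalings tried (0.21 to 0.84). MID2, the sensor gene of the second sensor family (chromosome XII, 790676 to 791806, plus strand), was at 112 and 105 FPKM in non-stress and 129 and 134 FPKM in stress libraries. The groups did not overlap and the log2 fold change was 0.27 ± 0.056 (SE; limma adjusted p = 0.00146), but it turned to -0.17 (adjusted p = 0.0197) with equal sums that leave out ribosomal protein genes. The first 371 bases of MID2 are overlapped on the other strand by JIP3, which was listed at 4.14 to 8.14 FPKM; the sources used here do not say whether strand was used in counting.

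The genes of the exchange factor and of the GTPase did not pass the test. ROM2 (chromosome XII, 862714 to 866784, plus strand) was at 34.4 and 31.5 FPKM in non-stress and 30.4 and 29.3 FPKM in stress libraries. Its stress libraries lay just below the non-stress ones, and the log2 fold change, -0.14 ± 0.075 (SE; limma adjusted p = 0.112), did not pass. Without non-stress replicate 2 it was -0.20, and its sign changed with the scaling. It passed as lower (-0.57) with equal sums that leave out ribosomal protein genes and as higher (0.23) without the length trend. RHO1 (chromosome XVI, 875368 to 875997, plus strand), whose product also activates the glucan synthase of the wall, was at 612 and 584 FPKM in non-stress and 548 and 584 FPKM in stress libraries. These libraries overlapped. The log2 fold change was -0.08 ± 0.054 (SE; limma adjusted p = 0.198), with values from -0.52 to 0.11 under the other scalings. The fall passed with equal FPKM sums (-0.17), with those that leave out ribosomal protein genes (-0.52) and after quantile normalization (-0.34). RHO1 was the most abundant of the 10 transcripts in both groups, at a percentile of 95.3 among all genes in non-stress and 94.2 in stress libraries.

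PKC1, the single protein kinase C gene of yeast (chromosome II, 14241 to 17696, minus strand), was at 53.2 and 48.5 FPKM in non-stress and 77.9 and 77.0 FPKM in stress libraries. All stress values were above all non-stress values, by 1.52-fold in the mean. The log2 fold change was 0.60 ± 0.065 (SE; limma adjusted p = 1.82e-05) and between 0.16 and 0.93 under the other scalings, where the call held.

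In the kinase cascade below Pkc1, the genes at the top and at the bottom fell by over 2-fold. BCK1, the first kinase (chromosome X, 247255 to 251691, plus strand), was at 22.9 and 22.7 FPKM in non-stress and 10.6 and 10.3 FPKM in stress libraries. The replicates lay close together and the groups were far apart: the mean was 2.18-fold lower under stress, or -1.06 ± 0.086 in log2 fold change (SE; limma adjusted p = 2.2e-06). SLT2, the MAP kinase (chromosome VIII, 168890 to 170344, minus strand), was at 199 and 168 FPKM in non-stress and 79.0 and 83.1 FPKM in stress libraries. Its non-stress libraries differed from each other by 0.24 on the log2 scale, well under the difference of the groups, and the mean was 2.26-fold lower under stress, or -1.16 ± 0.08 in log2 fold change (SE; limma adjusted p = 6.05e-07). Under the 5 other scalings the fall of BCK1 was between -1.47 and -0.56 and that of SLT2 between -1.60 and -0.94, and both passed in each.

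The paired middle kinases moved in opposite directions. MKK1 (chromosome XV, 772601 to 774127, plus strand) was at 67.7 and 73.6 FPKM in non-stress and 49.9 and 50.2 FPKM in stress libraries, -0.49 ± 0.064 in log2 fold change (SE; limma adjusted p = 7.1e-05). MKK2 (chromosome XVI, 287514 to 289034, minus strand) was at 28.8 and 29.5 FPKM in non-stress and 40.6 and 39.7 FPKM in stress libraries, 0.45 ± 0.067 in log2 fold change (SE; limma adjusted p = 0.00017). Neither gene had overlapping groups. The fall of MKK1 passed under all 5 other scalings (-0.92 to -0.27), whereas the rise of MKK2 came down to 0.02 (adjusted p = 0.809) with equal sums that leave out ribosomal protein genes.

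RLM1, which encodes the MADS-box factor at the end of the pathway (chromosome XVI, 379120 to 381150, minus strand), was at 154 and 133 FPKM in non-stress and 121 and 124 FPKM in stress libraries. The groups did not overlap, but the log2 fold change, -0.22 ± 0.071 (SE; limma adjusted p = 0.0147), was close to the difference of 0.20 between the non-stress replicates. It was -0.04 after median centring and 0.00 after removal of the length trend, and neither passed.

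The order of the transcripts changed between the groups. In non-stress libraries mean FPKM fell from RHO1 (598 ± 19.4, SD, n = 2) through SLT2 (184 ± 22.1), RLM1 (143 ± 14.4), MID2 (108 ± 4.53), WSC1 (90.7 ± 1.72), MKK1 (70.7 ± 4.17), PKC1 (50.8 ± 3.30), ROM2 (33.0 ± 2.04) and MKK2 (29.1 ± 0.495) to BCK1 (22.8 ± 0.156). In stress libraries the order was RHO1 (566 ± 25.4), WSC1 (143 ± 7.26), MID2 (131 ± 3.57), RLM1 (122 ± 2.34), SLT2 (81.0 ± 2.88), PKC1 (77.4 ± 0.636), MKK1 (50 ± 0.177), MKK2 (40.1 ± 0.601), ROM2 (29.8 ± 0.771) and BCK1 (10.5 ± 0.205). SLT2 thus went from the second to the fifth place and WSC1 from the fifth to the second. Libraries of neighbours in either order did not overlap, but several gaps were small: SLT2 and PKC1 were 3.63 FPKM apart under stress, and ROM2 and MKK2 3.81 FPKM apart in non-stress libraries. BCK1 was last in both groups, at a percentile of 22.2 among all genes in the non-stress group and 14.8 in the stress group. The level of MKK1 was higher than that of BCK1 in all 4 libraries, with BCK1 at 0.338 and 0.308 of MKK1 in non-stress and 0.212 and 0.206 in stress libraries.

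The ratio of SLT2 to RLM1, which a single factor per library does not change, was 1.30 and 1.26 in non-stress and 0.655 and 0.671 in stress libraries. The MAP kinase transcript was thus more abundant than that of its factor in every non-stress library and less abundant in every stress library. With 2 libraries against 2, an exact two-sided permutation test of a single ratio cannot give a p below 0.333, and no other test of the ratios was run, so they are given as a description.

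**Figure D2:**
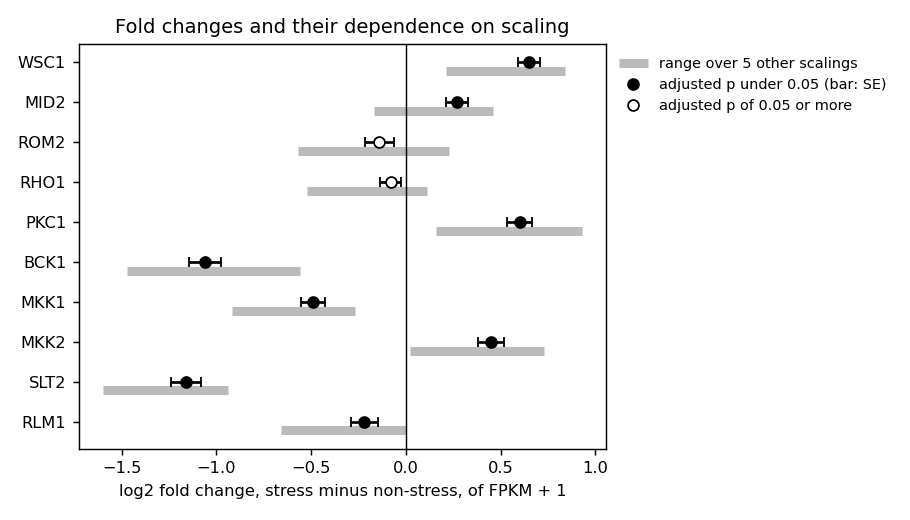
Log2 fold change of FPKM + 1, stress minus non-stress, of each pathway gene (points; bars are SE; filled where the limma adjusted p was under 0.05) and its range over 5 other scalings (grey). The ranges of SLT2, BCK1 and MKK1 stay below 0 and those of WSC1 and PKC1 above it, while those of MID2, ROM2 and RHO1 cross 0, that of RLM1 ends at 0 and that of MKK2 starts at 0.02.

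To show the DNA next to the genes with the largest changes, the 300 bases before the start codon are printed for the 2 that fell most (SLT2 and BCK1) and the 2 that rose most (WSC1 and PKC1), from the R64 reference of strain S288C and not from CY. They run 5′ to 3′ on the strand of the gene, in lower case with motif matches in capitals. The regions are chrVIII:170345-170644 (minus strand) for SLT2, chrX:246955-247254 (plus strand) for BCK1, chrXV:342415-342714 (minus strand) for WSC1 and chrII:17697-17996 (minus strand) for PKC1.
SLT2: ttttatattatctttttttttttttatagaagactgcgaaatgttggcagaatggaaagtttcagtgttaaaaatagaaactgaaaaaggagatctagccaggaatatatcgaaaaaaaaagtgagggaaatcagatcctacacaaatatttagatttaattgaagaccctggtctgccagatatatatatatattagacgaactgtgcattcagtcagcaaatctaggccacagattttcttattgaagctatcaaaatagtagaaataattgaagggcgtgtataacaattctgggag
BCK1: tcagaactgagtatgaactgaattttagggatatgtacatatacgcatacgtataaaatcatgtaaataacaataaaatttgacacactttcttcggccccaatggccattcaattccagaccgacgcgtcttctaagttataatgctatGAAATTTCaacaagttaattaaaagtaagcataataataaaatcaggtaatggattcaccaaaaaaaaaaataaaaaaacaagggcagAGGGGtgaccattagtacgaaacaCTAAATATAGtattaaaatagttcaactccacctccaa
WSC1: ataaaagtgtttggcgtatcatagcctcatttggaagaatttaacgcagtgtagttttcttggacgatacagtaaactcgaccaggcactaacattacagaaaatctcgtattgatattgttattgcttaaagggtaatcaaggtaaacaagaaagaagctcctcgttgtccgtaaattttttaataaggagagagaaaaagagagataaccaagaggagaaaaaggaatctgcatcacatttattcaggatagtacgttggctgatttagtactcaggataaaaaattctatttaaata
PKC1: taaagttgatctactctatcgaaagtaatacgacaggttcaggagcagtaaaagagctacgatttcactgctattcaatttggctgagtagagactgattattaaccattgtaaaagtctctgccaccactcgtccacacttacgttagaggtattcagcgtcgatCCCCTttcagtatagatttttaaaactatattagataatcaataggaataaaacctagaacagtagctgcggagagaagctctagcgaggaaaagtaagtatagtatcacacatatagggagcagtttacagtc

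The motifs searched, on both strands, were AGGGG (the stress response element), GAANNTTC (a core of the heat shock element), CACGAAA (a site of the cell cycle factor Swi4) and the Rlm1 motif. In the BCK1 window, a heat shock core began 150 bases, an AGGGG 62 bases and an Rlm1 motif 38 bases before the start codon, without overlap between them. In the PKC1 window an AGGGG on the other strand began 134 bases before the start codon. The SLT2 and WSC1 windows held none of these letters. The first 21 bases of the BCK1 window lie in its neighbour MRPL49. Among the 10 pathway genes, 2 windows held AGGGG, 1 GAANNTTC, 1 the Rlm1 motif and 0 CACGAAA, where of 5893 windows of the same length 22.4%, 11.5%, 1.2% and 4.5% did. A match describes the letters only.

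Several steps of the pathway are served by related genes, and their levels were compared within each library as ratios of FPKM, which a single factor per library does not change. The MKK1 and MKK2 proteins are 60.6% identical, and 0% of the 50-base windows of either coding sequence occur in another one, so reads are not shared between them at that length. The ratio of MKK1 to MKK2 was 2.35 and 2.50 in non-stress and 1.23 and 1.26 in stress libraries. Their summed level was 96.5 and 103 FPKM in non-stress and 90.5 and 89.9 FPKM in stress libraries. The ratio was lower in both stress libraries, whereas the sum, unlike the ratio, moves with the scaling of each library.

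ROM1, the other exchange factor gene of the ROM2 pair (44.3% protein identity), was at 22.3 and 21.5 FPKM in non-stress and 104 and 103 FPKM in stress libraries. It rose by 2.19 ± 0.062 on the log2 scale (SE; limma adjusted p = 9.61e-10), and the ratio of ROM2 to ROM1 went from 1.54 and 1.46 to 0.292 and 0.284. ROM2 was thus the more abundant of the pair in both non-stress libraries and the less abundant in both stress libraries.

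Among the sensor genes related to WSC1, WSC2 was at 37.7 and 41.0 FPKM in non-stress and 15.8 and 15.0 FPKM in stress libraries (on the log2 scale -1.30 ± 0.08, SE; limma adjusted p = 2.74e-07). WSC3 moved the other way, from 14.7 and 11.7 to 28.3 and 30.9 FPKM (1.12 ± 0.11; adjusted p = 9.96e-06). The ratio of WSC1 to WSC2 went from 2.38 and 2.24 to 8.74 and 9.85. MTL1, the relative of MID2, was at 143 and 127 FPKM in non-stress and 113 and 120.3 FPKM in stress libraries, a log2 fold change of -0.21 (adjusted p = 0.017) that was -0.02 after median centring and 0.01 without the length trend. MTL1 was above MID2 in both non-stress libraries and below it in both stress libraries.

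Rho1 also activates glucan synthase, whose catalytic subunit is encoded by a pair of genes. FKS1, the gene used in vegetative growth, was at 159 and 156 FPKM in non-stress and 58.7 and 59.6 FPKM in stress libraries, a fall of 2.67-fold (on the log2 scale -1.40 ± 0.053, SE; limma adjusted p = 7.69e-09). GSC2, also called FKS2, the copy known for expression under stress and poor carbon sources (87.9% protein identity), was at 179 and 166 FPKM in non-stress and 191 and 186 FPKM in stress libraries and did not pass (0.13 ± 0.056; adjusted p = 0.0507). Under the 5 other scalings the GSC2 change ran from -0.31 to 0.59, with the sign reversed in 1. The ratio of FKS1 to GSC2 went from 0.889 and 0.941 to 0.307 and 0.319. KDX1, the pseudokinase gene related to SLT2, was at 12.3 and 10.6 FPKM in non-stress and 18.7 and 19.1 FPKM in stress libraries (0.68 ± 0.10; adjusted p = 0.000148), so the ratio of SLT2 to KDX1 went from 16.2 and 15.9 to 4.22 and 4.36.

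**Figure D3:**
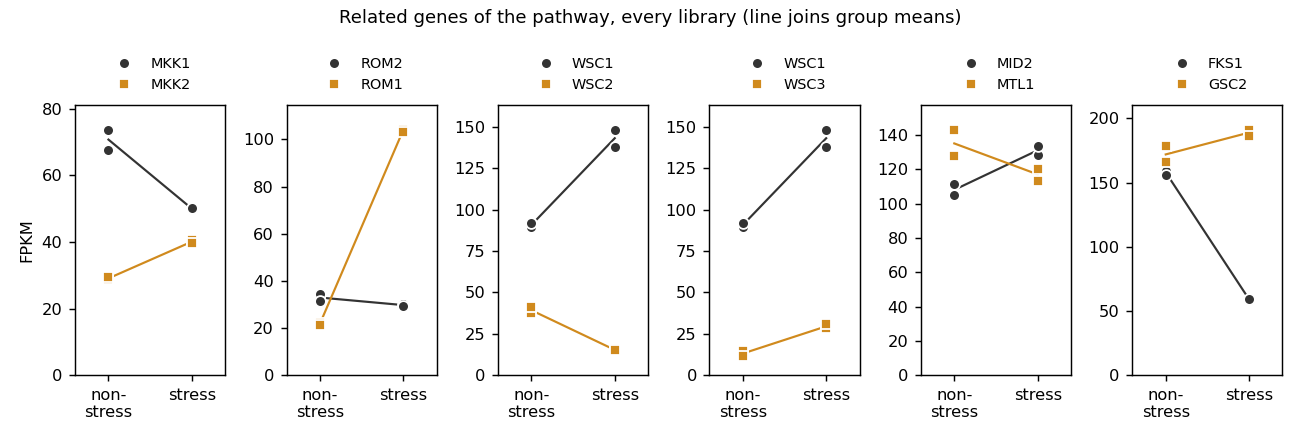
FPKM of 6 sets of related genes in every library (points), with lines joining the group means of the non-stress and stress libraries, each panel on its own axis from 0. ROM1 overtakes ROM2 under stress, MKK1 and MKK2 approach each other, and FKS1 falls while GSC2 did not pass the test.

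The wider pathway was described with a list of 36 other components. Of these, 32 passed, 16 higher and 16 lower; the median change was 0.04 on the log2 scale, and the share that passed was near the 87.7% of all genes. The calls of 19 of the 32 held under all 5 other scalings, 8 higher and 11 lower, and the balance was 8 higher and 23 lower with equal sums that leave out ribosomal protein genes. The 4 that did not pass were GSC2, SWI4, BNI1 (0.05) and CNB1 (0.03), the last 2 named after their values were seen. Each of these changed sign under at least 1 of the 5 other scalings.

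The 5 further sensor-related genes all passed, 3 higher and 2 lower, against 87.7% of all genes. ZEO1, whose product binds Mid2, rose 2.61-fold, from 967 and 833 to 2279 and 2422 FPKM. Of the 7 regulators of Rho1 and its relatives 7 passed, 4 higher and 3 lower, against 87.7% of all genes. The calls of 3 of them held under all 5 other scalings, 1 higher and 2 lower. BAG7, a GTPase-activating protein gene, fell from 113 and 97.7 to 35.2 and 38.5 FPKM (-1.49 ± 0.081; adjusted p = 1.14e-07), and its relative SAC7 was at 49.1 and 41.8 against 31.2 and 32 FPKM (-0.51). TUS1, another exchange factor gene, had 0.52, which came down to 0.10 without ribosomal protein genes in the sums, and BEM2, another GTPase-activating protein gene, had -0.46, which was 0.03 without the length trend. The 3 kinase genes PKH1, PKH2 and PKH3, of which the first 2 encode kinases that phosphorylate Pkc1, passed as higher, against 39.8% of all genes. The call of 1 of the 3, PKH2, held under all 5 other scalings. PKH2 rose 2.06-fold (33.6 and 32.1 against 67.5 and 67.9 FPKM). PKH1 (0.24) changed sign, to -0.20, and PKH3 (0.49) came down to 0.05 when ribosomal protein genes were left out of the sums.

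The phosphatase genes that act on Slt2 and related kinases included the largest rise among the other components. SDP1, a stress-induced phosphatase of Slt2, was at 25.6 and 24.7 FPKM in non-stress and 154 and 152 FPKM in stress libraries. Every stress value was far above every non-stress value, and the mean rose 6.07-fold (on the log2 scale 2.56 ± 0.058, SE; limma adjusted p = 2.41e-10). Its relative MSG5 was at 26.2 and 26.9 against 40.6 and 39.4 FPKM (0.57), which was 0.14 without ribosomal protein genes in the sums. The tyrosine phosphatase genes PTP2 (105 and 92.1 against 68.8 and 66.8 FPKM) and PTP3 (23.0 and 18.7 against 11.5 and 12.1 FPKM) fell, by 0.53 and 0.77 on the log2 scale, also under the 5 other scalings. SDP1 was below SLT2 in all non-stress libraries and above it in all stress libraries.

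Among effectors and nuclear partners, SKN7, a stress transcription factor gene whose product binds Rho1, fell 3.02-fold, from 82.3 and 71.3 to 24.9 and 26.1 FPKM (on the log2 scale -1.55 ± 0.081, SE; limma adjusted p = 7.96e-08). SEC3, an exocyst subunit gene, had 0.32, and -0.12 without ribosomal protein genes in the sums. SWI4 and SWI6 encode the factor that Slt2 and its pseudokinase control in the cell cycle and at wall genes. SWI4 did not pass (16.5 and 15.5 against 17.0 and 16.0 FPKM), and SWI6 had -0.26 (adjusted p = 0.00498), which did not pass under 3 of the 5 scalings. PAF1, of the elongation complex, had 0.17, which was -0.27 without ribosomal protein genes in the sums.

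**Figure D4:**
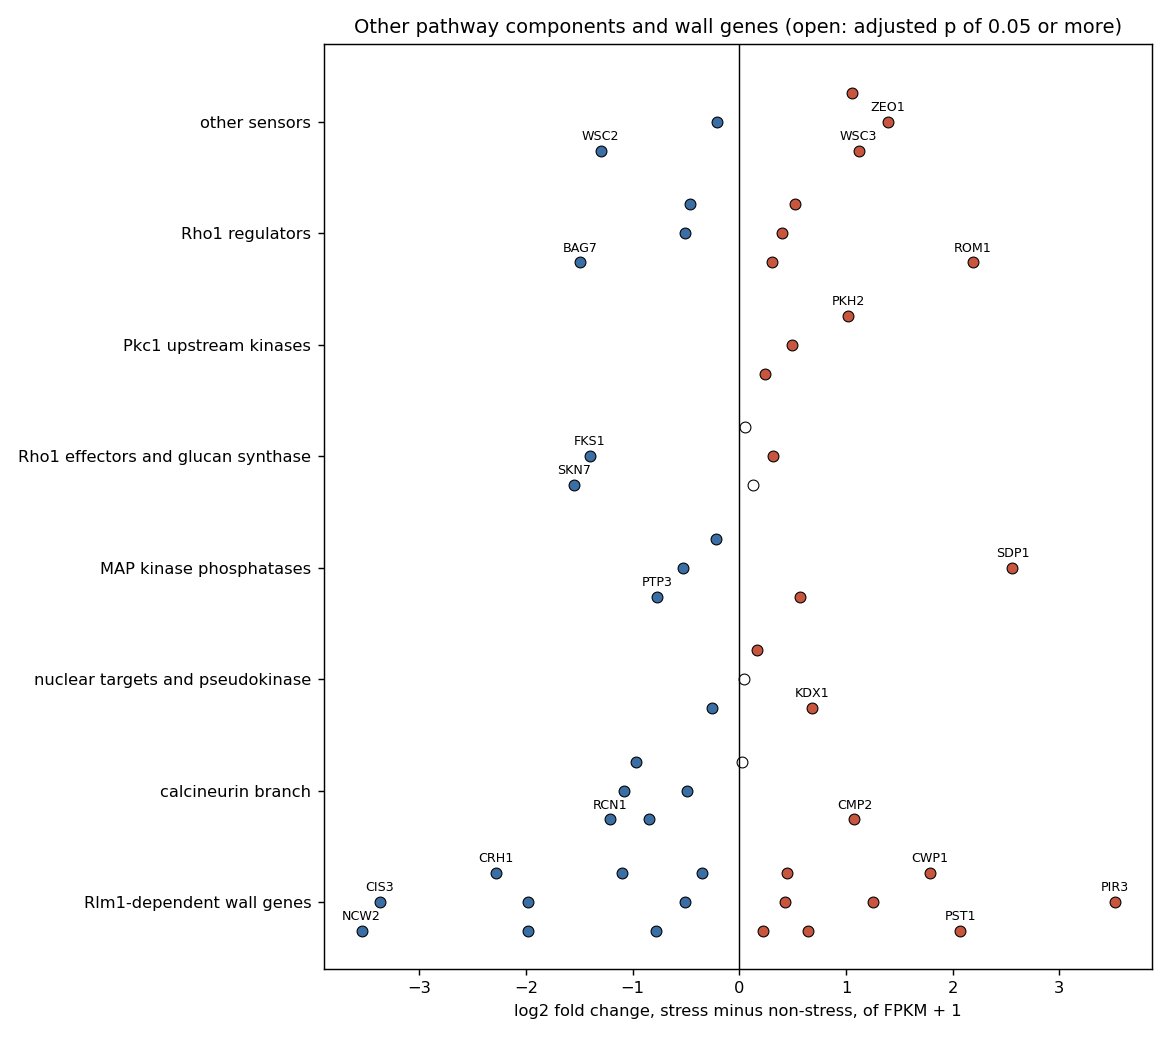
Log2 fold change of FPKM + 1, stress minus non-stress, of 36 other pathway components by role and of 17 wall genes reported to depend on Rlm1 (red, higher and blue, lower at a limma adjusted p under 0.05; open, not passed). SDP1 and ROM1 are the highest of the components, and the wall genes spread from -3.54 to 3.52.

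The 17 wall genes that have been reported to depend on Slt2 and Rlm1 did not move one way. All 17 passed, 8 higher and 9 lower, against 87.7% of all genes, with a median log2 fold change of -0.35 and a range from -3.54 to 3.52. Of them 10 had an absolute log2 fold change of at least 1, against 46% of all genes. The calls of 13 held under all 5 other scalings, 5 higher and 8 lower.

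Of the wall genes that rose, PIR3, a covalently bound wall protein gene, went from 60.0 and 62.8 to 723 and 710 FPKM, 11.7-fold in the mean (on the log2 scale 3.52 ± 0.051, SE; limma adjusted p = 1.72e-11); 6.5% of its windows also occur elsewhere. PST1, a protein gene known to be induced by wall damage, went from 214 and 210 to 887 and 894 FPKM, CWP1, a mannoprotein gene, from 36.5 and 31.6 to 119.8 and 119.8 FPKM, and PRM5, a reporter gene of the pathway, from 5.62 and 6.07 to 14.5 and 16.0 FPKM. Of those that fell, CIS3, of the same protein family as PIR3, went from 1011 and 1038 to 96.5 and 100.5 FPKM (-3.37 ± 0.05; adjusted p = 1.92e-11). NCW2, a wall protein gene, went from 1153 and 945 to 86.3 and 92.0 FPKM, and CRH1, a chitin transglycosylase gene, from 427 and 415 to 85.9 and 85.4 FPKM. Reported targets of the same factor were thus both among the genes that rose and among those that fell. RLM1 itself had -0.22, which was -0.04 after median centring and 0.00 without the length trend. A link between its level and those of the wall genes was not tested. The summed level of the 17 genes was 19366 and 19088 FPKM in non-stress and 23430 and 23432 FPKM in stress libraries. This sum is set largely by SED1 and HSP150, the most abundant of them, named after their values were seen. The other 15 summed to 6100 and 5961 FPKM in non-stress and 4709 and 4678 FPKM in stress libraries, so the direction of the sum turned without these genes. SED1 had 0.45, which was 0.01 without ribosomal protein genes in the sums.

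The other MAP kinase cascades of yeast were set beside this one. In the high osmolarity cascade 9 of 9 genes passed, 2 higher and 7 lower, against 39.8% higher and 47.9% lower over all genes, and the calls of 6 held under all 5 other scalings, 1 higher and 5 lower; the median change was -0.64 on the log2 scale. HOG1, its MAP kinase gene, was at 129 and 135 FPKM in non-stress and 82.0 and 86.5 FPKM in stress libraries (-0.64 ± 0.057; limma adjusted p = 4.03e-06). The ratio of SLT2 to HOG1 was 1.54 and 1.25 in non-stress and 0.964 and 0.961 in stress libraries. PBS2, the kinase gene above HOG1, had -0.20, which did not pass under 3 of the 5 scalings. SHO1, an osmosensor gene, fell 4.36-fold, and OPY2, a membrane anchor gene, rose 2.18-fold. In the pheromone and filamentation cascade 6 of 8 genes passed, 4 higher and 2 lower, with a median of 0.10, against 87.7% of all genes. With equal sums that leave out ribosomal protein genes the balance turned to 3 higher and 4 lower. STE5 (-0.36) and STE12 (-0.10), named after their values were seen, did not pass. KSS1, the filamentation MAP kinase gene, was at 44.9 and 38.5 FPKM in non-stress and 12.6 and 12.2 FPKM in stress libraries, a fall of 1.67 ± 0.092 on the log2 scale (SE; limma adjusted p = 1.22e-07). FUS3, the pheromone MAP kinase gene, was low, at 2.13 and 2.80 against 5.65 and 6.39 FPKM. No test compared these cascades with the cell wall integrity genes as groups.

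Marker genes of some yeast cell states were read in the same libraries. Of 9 genes specific to haploid cells or a mating type, 8 could be tested and 3 passed, all higher, against 87.7% of all genes; the call of 1 of the 3 held under all 5 other scalings. Their summed level was 52.5 and 65.4 FPKM in non-stress and 67.4 and 70.0 FPKM in stress libraries, and none was at 0, the lowest being HO at 0.29 to 0.71 FPKM. The sum includes MFA1 and MFA2, short genes of 111 and 117 coding bases. In non-stress libraries these differed widely between replicates (2.86 and 12.85 FPKM for MFA1, 2.65 and 9.25 FPKM for MFA2). Of 8 meiosis and sporulation genes 8 passed, 4 higher and 4 lower, against 87.7% of all genes, and the calls of 4 held under all 5 other scalings, 1 higher and 3 lower. Their summed levels were 114 and 109 against 122 and 119.8 FPKM. Their part in the differences above was not tested.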

How the data were processed

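RNA of 4 libraries, 2 per group, was measured by sequencing of polyadenylated RNA selected with oligo(dT) beads and primed with random hexamers, per the labels' protocols. The authors deposited FPKM values rounded to 2 decimals, per the file headers; HISAT2 2.1.0, Bowtie2 2.2.5, RSEM 1.2.8 and build R64 are listed, with no role or order, in the submitters' processing notes. Filters, and whether counting used strand, are not given in the sources used here. Groups follow the sample titles.

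Log2 values were computed from the deposited FPKM as log2(FPKM + 1). A gene was tested if 2 or more libraries reached an FPKM of 1; 113 genes did not and 5784 were tested. Groups were compared with limma 3.58.1 in R 4.3.3 (lmFit, eBayes with a trend, two-sided, Benjamini-Hochberg over all genes tested, threshold 0.05), with 2 residual and 6.51 prior degrees of freedom and a median SE of 0.07. The fit was tested on simulated data. Folds are ratios of mean FPKM.

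Depth was estimated from low FPKM values of genes with no shared windows. At the estimated depth, between 96.4% and 100% of these values (28 to 54 per library) lay within 0.1 of a whole number of reads. The depth was chosen to bring these same values near whole numbers, so this share is not a separate check of it. Counting error alone gave an SE of 0.018 to 0.047 for the log2 fold changes of the 10 genes. Across genes, Pearson's r between replicates was 0.996 in the non-stress and 0.9977 in the stress group.

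Of 5897 genes, 5894 matched R64 by identifier, 5814 with identical coordinates, the 10 pathway genes among them. Coordinates are 1-based. Shared windows are 50-base stretches of a coding sequence found in another one. Promoters, motifs and protein identity (global alignment, share of the longer protein) were computed from R64 with Python 3.11.15 and Biopython 1.88. The pathway genes and lists were chosen with earlier results of these data known. Named genes were the 10, 28 taken in any case and up to 3 per list. The latter had the largest change that passed and a mean FPKM of at least 20. SSK1, STE20 and STE50 met this rule but are not described above. HO, MFA1 and MFA2 were outside it and named after their values were seen. Alternatives were quantile normalization, median centring, equal FPKM sums, the same without 138 ribosomal protein genes, a pseudocount of 0.1, no filter, an FPKM minimum of 5, a replicate block, each library left out and a threshold of 0.01. Removing a loess trend of fold change on coding length was added after the data were seen. The comparison for 1 further gene list is not reported here.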

Additional observations from a re-analysis of the deposited data

How the results depend on the processing

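Over 14 alternatives, the log2 fold changes of SLT2, BCK1, MKK1, PKC1 and WSC1 kept their sign and their call. The scaling shifted log2 fold changes by a median over genes of 0.18 (quantile normalization), 0.19 (median centring) and -0.09 (equal FPKM sums). This median shift was -0.43 with equal sums without ribosomal protein genes and 0.19 with the length trend removed. Changes near these sizes are relative to the scaling. Signs reversed for ROM2 (0.14 after quantile normalization, 0.05 after median centring, 0.23 without the length trend, the last with an adjusted p of 0.0155), for RHO1 (0.11 after median centring and 0.07 without the length trend) and for MID2 (-0.17 with equal sums without ribosomal protein genes, adjusted p = 0.0197). RLM1 missed the threshold after median centring (-0.04), without the length trend (0.00), without a filter (-0.22, adjusted p = 0.0509) and at a threshold of 0.01, and MKK2 with equal sums without ribosomal protein genes (0.02). RHO1 and ROM2 passed with equal sums (-0.17 and -0.22) and with those without ribosomal protein genes (-0.52 and -0.57), RHO1 also after quantile normalization (-0.34). The cause was not tested. Between 7 and 10 of the 10 genes passed under every alternative, and 8 to 9 with a library left out. Over all genes 4758 to 5182 passed; with equal sums without ribosomal protein genes 1606 were higher and 3576 lower, against 2300 and 2771. The counts of the 4 other lists were recomputed under the alternatives except removal of the length trend. For that setting their genes were read singly, as part of the 5 other scalings. With all 4 libraries, the number that passed stayed within 1.5 times its value. It was 29 to 33 of 36 other components and 15 to 17 of 17 wall genes. In the high osmolarity cascade it was 7 to 9 of 9 and in the pheromone cascade 6 to 7 of 8. The split was less stable. With equal sums without ribosomal protein genes it was, in this order, 8 higher and 23 lower, 5 and 10, 1 and 7, and 3 and 4. The calcineurin, haploid and meiosis lists were recomputed under the 5 scalings only.

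The replicate numbers are shared between groups, but the difference of replicate 1 and replicate 2 in non-stress and in stress libraries had a correlation of -0.005 across genes. With the replicate number as a block 8 of the 10 genes passed, and 5073 of all genes against 5071. The median SE was 0.07 with 2 libraries per group, and ROM2 at -0.14 and GSC2 at 0.13 did not pass.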

Other observations

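The calcineurin branch, in which calcium entering through wall-stress channels activates a phosphatase and the factor Crz1, was read as a list of 7 genes. Of these 6 passed the limma test, 1 higher and 5 lower, against 87.7% of all genes, 39.8% higher and 47.9% lower. The calls of 5 held under all 5 other scalings, and MID1, a calcium channel subunit gene named after its values were seen, went from -0.49 to -0.04 after quantile normalization. The median change of the list was -0.85 on the log2 scale. RCN1, an inhibitor of calcineurin and a known Crz1 target, was at 239.6 and 186 FPKM in non-stress and 91.3 and 89.8 FPKM in stress libraries (-1.21 ± 0.10, SE; adjusted p = 2.6e-06). CRZ1 itself was at 113 and 94.8 against 50.9 and 53.9 FPKM (-0.97 ± 0.084; adjusted p = 3.4e-06). The pair of catalytic subunit genes moved apart: CMP2 rose from 71.1 and 63.0 to 140.4 and 144 FPKM (1.08 ± 0.067; adjusted p = 3.1e-07), while CNA1, named after its values were seen, went from 45.1 and 48.4 to 26.8 and 24.2 FPKM (-0.85). These 4 calls held under the 5 other scalings.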
